A study of Bos taurus with 4 samples.

Results

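Interferon signalling is represented here by 47 named genes: the receptors and signalling factors through which cells read interferons, the sensors that start the response, the antiviral effectors that interferons induce, and feedback inhibitors. Members were found by their gene symbol in the annotation of the array platform, and a gene with several probes was read from the probe with the highest mean signal. Of the 47 genes, 39 had a probe under their symbol. Of these, 33 were bright enough to be tested, out of 13530 genes tested on the array. IFNAR2, IRF2, ISG20, IFI6, RSAD2 and SOCS3 were too dim, their mean signal lying under the limit set by the negative control spots. OAS1X, OAS1Y, IFIT1, IFITM1, DDX58, DHX58, BST2 and SP110 matched no probe by symbol and enter no count.

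The series holds 4 two-colour arrays of the EmbryoGENE bovine design, each carrying 2 pools of early blastocysts from 1 Holstein heifer (Bos taurus). The oocytes behind one pool were collected when the heifer was 14 months old, and those behind the other when it was 11 months old. All pools shared the donors' progesterone and FSH stimulation, in vitro maturation, fertilization with semen of adult bulls, culture, and collection at 168 hours after fertilization, and the heifers were a part of a larger study around puberty. The 4 replicates were 4 heifers, with 4 pools at 14 months and 4 at 11 months. The sources used here do not give the number of embryos pooled, and donor age cannot be told apart from the time at which oocytes were collected. In a pool of whole embryos, fewer cells of a type and less RNA per cell cannot be told apart either.

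Type I interferons bind a receptor made of IFNAR1 and IFNAR2, and interferon gamma binds one made of IFNGR1 and IFNGR2. The kinases JAK1 and TYK2, held on the receptor chains, then phosphorylate STAT proteins. STAT2 acts with IRF9 in a complex that switches on interferon-stimulated genes such as ISG15, MX1 and the IFIT and OAS families. In cattle the trophectoderm, the outer layer of the blastocyst, secretes interferon tau, a type I interferon that signals pregnancy to the mother, so that the embryo is itself a source of the ligand.

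Each value below is a log2 ratio of the normalized signal at 11 months over that at 14 months in the same heifer, given in the order of replicates 1 to 4. The ratio has the younger age on top, so that a negative ratio means a higher signal at 14 months. Means are given ± SD over the 4 heifers. Cy5 labelled the 11-month pool of replicates 1 and 2, and Cy3 that of replicates 3 and 4. Tests are limma's moderated test across all 36447 tested probes with Benjamini-Hochberg adjustment. An exact sign-flip test over 4 heifers cannot give a two-sided p under 0.125.

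No member passed an adjusted p of 0.05 in limma, and neither did any other probe, a share of 0% of the array, while 3448 probes were at an unadjusted p under 0.05. At an unadjusted p under 0.05, 6 members had a higher signal at 14 months, namely IFNAR1, IFNGR1, IRF1, IRF9, IFIT5 and IFITM3, against 5.15% of all tested genes. In the opposite direction stood IFI35 alone, against 4.96% of all tested genes. Each of the 7 members had an adjusted p between 0.388 and 0.513 in limma. The count of 6 was not kept in every fit: it was 3 without replicate 2, 3 without replicate 3 and 3 without replicate 4. It was 2 when the pools of a heifer were not paired. A fit without 1 heifer also rests on fewer samples, and each of the 7 members kept its sign in all of these fits. The count of 1 was 0 without replicate 2, 0 without replicate 3 and 2 without replicate 4.

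Counted by direction alone, 5 members had a higher signal at 14 months in all 4 heifers: IFNAR1, IFNGR1, IRF1, IRF9 and IFITM3. Of all tested genes, 7.93% did so. IFI44 was the member with a lower signal at 14 months in all 4 heifers, as were 8.48% of all tested genes. Over the 33 tested members, 23 means were negative and 10 positive, with a median of -0.05 and a range of -0.48 to 0.33. Over all 13530 genes, the median was 0.00, and 6681 means were negative and 6849 positive. The members' changes were small: the median size of a member's mean log2 ratio was 0.10, against 0.09 over all tested probes.

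**Figure D1:**
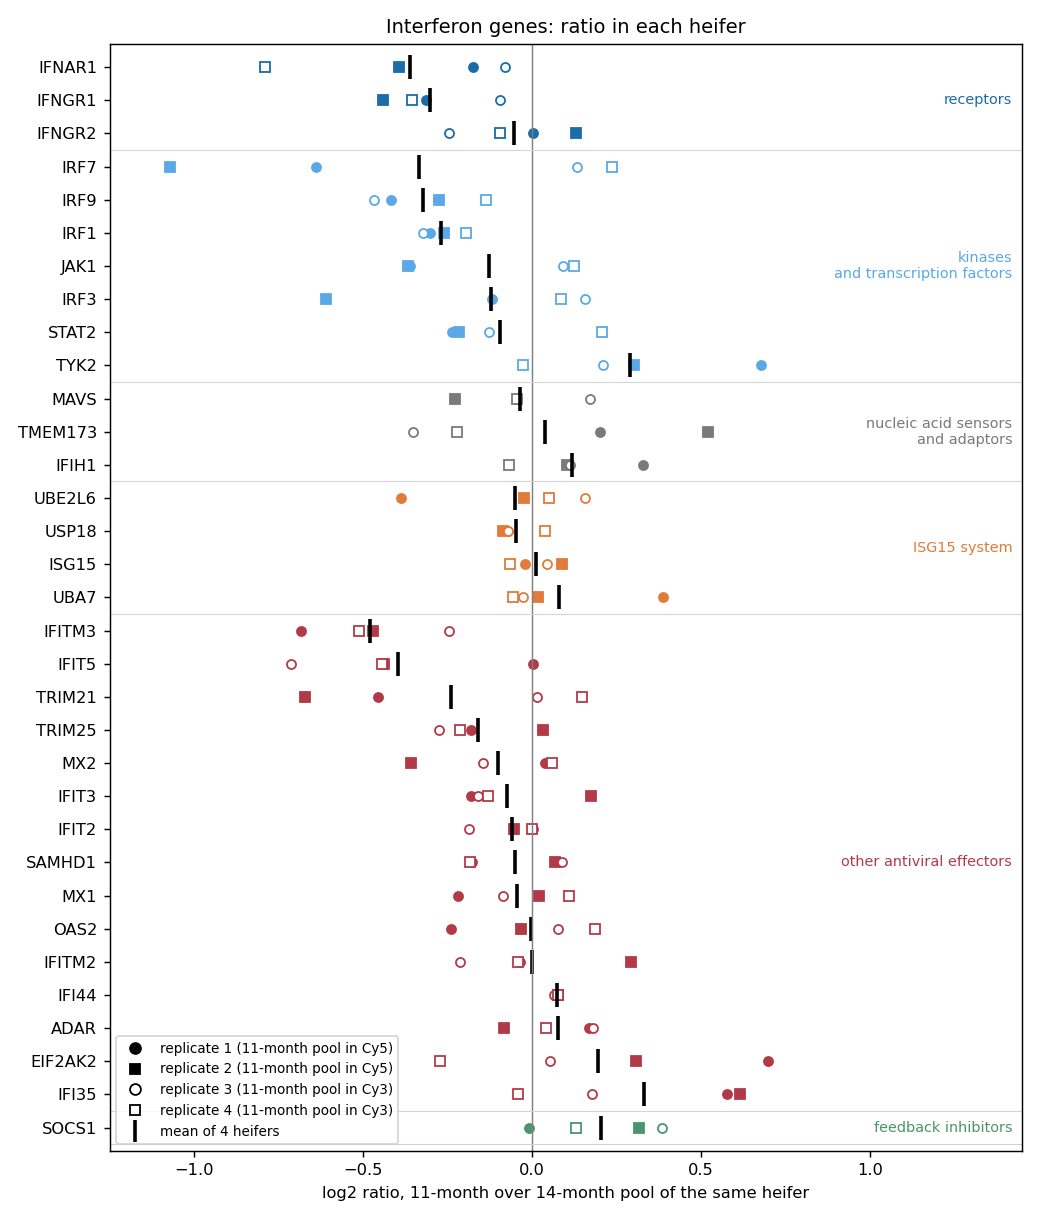
Log2 ratio of the 11-month over the 14-month pool (x axis) for each of the 33 tested members (y axis), grouped by role. Each symbol is 1 heifer, filled where the 11-month pool was in Cy5 and open where it was in Cy3, and the black bar is the mean of the 4 heifers. The bars of IFITM3, IFIT5, IFNAR1, IRF9, IFNGR1 and IRF1 lie left of 0, and the mean of IFI35 lies right of 0 at 0.33.

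Of the receptor chains, 3 of 4 were tested, and all of these were above background in all 8 pools. IFNGR1, the ligand-binding chain of the interferon gamma receptor, had ratios of -0.31, -0.44, -0.09 and -0.35. Its normalized log2 signals were 11.06, 10.77, 10.50 and 10.69 at 14 months, against 10.75, 10.33, 10.41 and 10.34 at 11 months. Every heifer thus had the higher signal at 14 months, while the ranges of the 2 ages overlapped through the high 11-month pool of replicate 1. The mean was -0.30 ± 0.15, a 1.23-fold higher signal at 14 months, with an unadjusted p of 0.016 in limma and an adjusted p of 0.437. In the authors' deposited log2 ratios the mean of IFNGR1 was -0.31 ± 0.10. Its unadjusted p in limma was 0.0659 without replicate 2, 0.0623 without replicate 4, 0.0673 with median centring and 0.0627 with the pools unpaired.

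IFNAR1, the first chain of the type I interferon receptor, had ratios of -0.18, -0.40, -0.08 and -0.79. All were negative, and that of replicate 4 was the largest in size. Its signals were 8.05, 8.26, 8.57 and 8.81 at 14 months, against 7.87, 7.87, 8.49 and 8.02 at 11 months, so that the ranges of the 2 ages overlapped. The mean was -0.36 ± 0.32, with an unadjusted p of 0.0309 in limma and an adjusted p of 0.472. Without replicate 4 the mean was -0.22 and the unadjusted p in limma 0.126, and that p was 0.086 without replicate 2 and 0.0895 with the pools unpaired. The gene's other probes did not share this value: their means were 0.04 ± 0.15 and -0.02 ± 0.18, and the mean over the 3 probes was -0.11. The result for IFNAR1 is therefore that of 1 probe of 3.

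IFNGR2, the signalling chain of the gamma receptor, had ratios of 0.00, 0.13, -0.25 and -0.10, with a mean of -0.05 ± 0.16 and no common direction. IFNAR2, the second chain of the type I receptor, was above background in 1 of 4 pools at 14 months and in 1 of 4 at 11 months. Its ratios of 0.21, 0.67, -0.29 and -0.07 therefore compare mostly background, and it was not tested. In the order of genes in the ARS-UCD2.0 assembly, IFNGR2, IFNAR1, IL10RB and IFNAR2 are direct neighbours on chromosome 1. IL10RB, a receptor chain shared by interleukin 10 and the lambda interferons, had ratios of 0.07, 0.31, 0.29 and -0.22. Its mean of 0.11 ± 0.25, like that of IFNGR2, was smaller than its SD, so that the neighbours of IFNAR1 did not share the sign of its brightest probe in every heifer.

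Among the kinases and transcription factors, 7 of 8 were tested, and 6 of the 7 had a negative mean, against 6681 of all 13530 tested genes. By heifer, 6, 6, 3 and 3 of the 7 had a negative ratio in replicates 1 to 4, so that the common sign was that of replicates 1 and 2. IRF1, a transcription factor induced by interferon gamma, had ratios of -0.30, -0.26, -0.32 and -0.20, the most even of the members at an unadjusted p under 0.05. Its signals were 7.71, 7.77, 7.78 and 7.86 at 14 months, against 7.40, 7.51, 7.46 and 7.66 at 11 months. All 4 signals at 14 months lay above all 4 at 11 months; IRF1 was the only member of the 33 for which this held, as it did for 1.58% of all tested genes. The mean was -0.27 ± 0.06, a 1.21-fold higher signal at 14 months, with an unadjusted p of 0.0141 in limma and an adjusted p of 0.436. The authors' deposited log2 ratios gave -0.26 ± 0.07, with an unadjusted p of 0.0535 in limma. With mean in place of median spot signals the mean was -0.14 and the unadjusted p in limma 0.0546, and that p was 0.0602 with median centring and 0.0538 without replicate 3.

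IRF9, the DNA-binding subunit of the complex that type I interferons activate, had ratios of -0.42, -0.28, -0.47 and -0.14. Its signals were 7.20, 7.34, 6.92 and 6.76 at 14 months, against 6.78, 7.07, 6.45 and 6.63 at 11 months, with overlapping ranges. The mean was -0.32 ± 0.15, with an unadjusted p of 0.0117 in limma and an adjusted p of 0.427. With mean in place of median spot signals the mean was -0.17 and the unadjusted p in limma 0.0558, and that p was 0.0514 without replicate 3 and 0.08 with the pools unpaired. IRF9 was above background in 4 of 4 pools at 14 months and in 3 of 4 at 11 months. STAT2, its partner in that complex, had ratios of -0.24, -0.22, -0.13 and 0.21 and a mean of -0.09 ± 0.21. Unlike IRF9, STAT2 thus had no common direction over the heifers.

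TYK2, the kinase bound to IFNAR1, ran the other way, with ratios of 0.68, 0.30, 0.21 and -0.03. The mean was 0.29 ± 0.29 and the unadjusted p in limma was 0.0569. Leaving out replicates 1 to 4 in turn gave a p of 0.199, 0.128, 0.0848 and 0.0267 in limma, and the mean without replicate 1 was 0.16. JAK1, the kinase bound to IFNAR2 and to IFNGR1, had a mean of -0.13 ± 0.27 from its brighter probe and 0.04 ± 0.30 from the other. The brighter probe was above background in 4 of 4 pools at 14 months and in 2 of 4 at 11 months. The other was so in 1 of 4 and 2 of 4. No common direction was therefore seen for the kinases.

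IRF7, the main amplifier of type I interferon production, varied most of all tested members. Its ratios were -0.64, -1.07, 0.13 and 0.24, with a mean of -0.34 ± 0.63 and an unadjusted p of 0.18 in limma. Its signals were 11.33, 10.96, 10.97 and 10.64 at 14 months, against 10.69, 9.89, 11.10 and 10.88 at 11 months. The 2 heifers with a higher signal at 14 months were those whose 11-month pool was in Cy5, and the 2 with a lower one were those whose 11-month pool was in Cy3. IRF3, the factor that first switches on interferon beta, had ratios of -0.12, -0.61, 0.16 and 0.08, split over the heifers in the same way. Its mean was -0.12 ± 0.35, and it was 0.04 without replicate 2. IRF2, which can repress IRF1 targets, was above background in 0 of 8 pools.

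**Figure D2:**
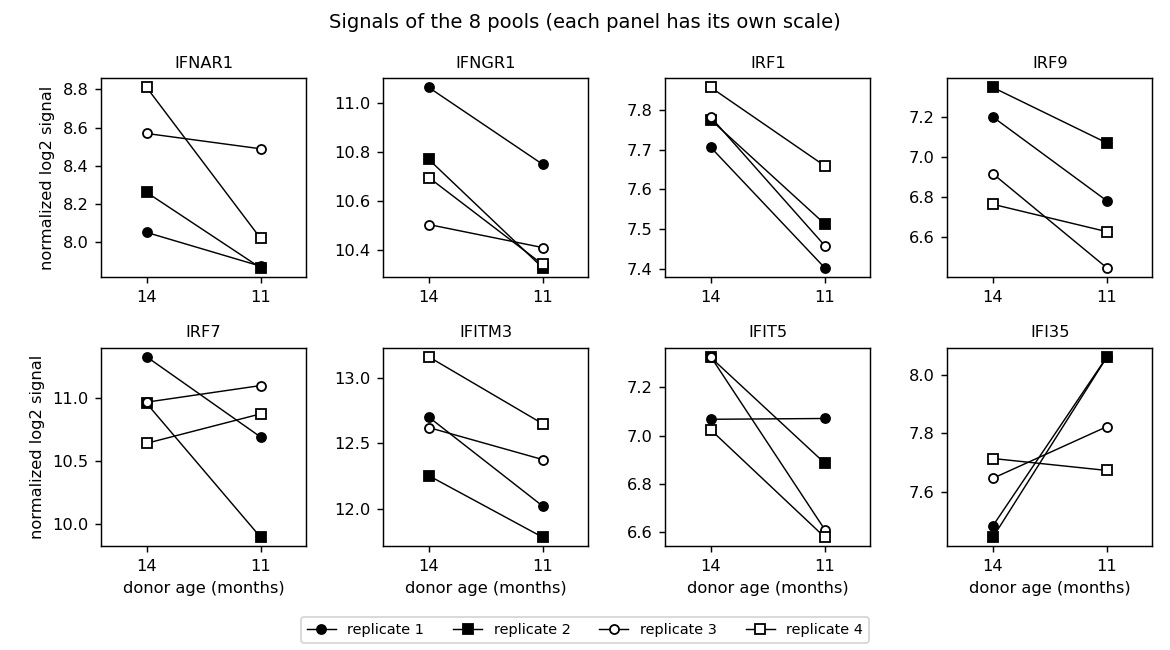
Normalized log2 signal (y axis, its own scale in each panel) of 8 members in the 4 pools at 14 months (left) and the 4 at 11 months (right). Lines join the pools of 1 heifer; filled symbols are heifers whose 11-month pool was in Cy5. All 4 lines descend to the right for IFNAR1, IFNGR1, IRF1, IRF9 and IFITM3, and the signals of the 2 ages do not overlap for IRF1.

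The sensors and adaptors that detect foreign or misplaced nucleic acid start the response. IFIH1, the sensor of long double-stranded RNA also called MDA5, had ratios of 0.33, 0.10, 0.11 and -0.07 and a mean of 0.12 ± 0.16. MAVS, the mitochondrial adaptor for such sensors, had ratios of -0.05, -0.23, 0.17 and -0.05 and a mean of -0.04 ± 0.16. TMEM173 (STING), the adaptor of cytosolic DNA sensing, had ratios of 0.20, 0.52, -0.35 and -0.22 and a mean of 0.04 ± 0.40. None of the 3 was at an unadjusted p under 0.05, and TMEM173 had opposite signs in the 2 dye orientations. TMEM173 was above background in 2 of 4 pools at 14 months and in 1 of 4 at 11 months.

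A probe annotated with LGP2, an older name of the RNA sensor DHX58 in the RefSeq gene table, was found after the members had been counted and stands outside every count here. Its ratios were -1.05, -0.14, -0.24 and -0.76, with a mean of -0.55 ± 0.43, an unadjusted p of 0.0132 in limma and an adjusted p of 0.432. The signal was higher at 14 months in 4 of 4 heifers, and 2 of the 4 carried most of the difference. OAS1, annotated without the letter that separates the bovine copies OAS1X and OAS1Y, had a mean of 0.08 ± 0.13.

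Of the antiviral effectors other than the ISG15 system, 15 of 24 were tested. IFITM3, a membrane protein that blocks virus entry from endosomes, had the largest mean of any member. Its ratios were -0.68, -0.47, -0.25 and -0.51. Its signals were 12.70, 12.25, 12.62 and 13.16 at 14 months, against 12.02, 11.78, 12.38 and 12.65 at 11 months. Every heifer had the higher signal at 14 months, and the ranges of the ages overlapped between heifers. The mean was -0.48 ± 0.18, a 1.39-fold higher signal at 14 months, with a 95% confidence interval of -0.72 to -0.24, an unadjusted p of 0.00228 in limma and an adjusted p of 0.388. With the pools unpaired the unadjusted p in limma was 0.0593.

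A second probe of IFITM3 gave a mean of -0.38 ± 0.28 and an unadjusted p of 0.019 in limma. In the authors' deposited log2 ratios the brighter probe gave -0.46 ± 0.15. The related gene IFITM2 had ratios of -0.04, 0.29, -0.21 and -0.04 and a mean of 0.00 ± 0.21. Members of the IFITM family are near-identical over long stretches, and whether these probes read 1 gene each was not tested. IFITM1 matched no probe by symbol.

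IFIT5, which binds viral and cellular RNA ends, had ratios of 0.00, -0.44, -0.71 and -0.44. Its signals were 7.07, 7.32, 7.33 and 7.02 at 14 months, against 7.07, 6.89, 6.61 and 6.58 at 11 months. The signals of replicate 1 were nearly equal, and the other 3 heifers had the higher signal at 14 months. The mean was -0.40 ± 0.30, with an unadjusted p of 0.0178 in limma and an adjusted p of 0.438. That p was 0.0575 without replicate 2, 0.0701 without replicate 3 and 0.0542 without replicate 4. Its second probe was above background in 0 of 8 pools. The related genes IFIT2 and IFIT3, which lie beside each other on chromosome 26 in ARS-UCD2.0 with 1 gene between them and IFIT5, had means of -0.06 ± 0.09 and -0.08 ± 0.17. IFIT2 was above background in 3 of 4 pools at 14 months and in 2 of 4 at 11 months.

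IFI35, an interferon-induced leucine zipper protein, had ratios of 0.58, 0.62, 0.18 and -0.04. Its signals were 7.48, 7.45, 7.65 and 7.71 at 14 months, against 8.06, 8.06, 7.82 and 7.67 at 11 months. The signal at 14 months was the lower in 3 of 4 heifers, most clearly in the 2 whose 11-month pool was in Cy5. The mean was 0.33 ± 0.32, with an unadjusted p of 0.0429 in limma and an adjusted p of 0.513. That p was 0.154 without replicate 1, 0.164 without replicate 2, 0.0506 without replicate 3 and 0.0709 with mean spot signals. The mean was 0.60 over replicates 1 and 2, against 0.07 over replicates 3 and 4.

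The effectors most used as readouts of interferon action gave means close to 0, from probes that were not above background in every pool. MX1 and MX2, dynamin-like proteins that block virus replication and whose genes are neighbours on chromosome 1, had means of -0.04 ± 0.14 and -0.10 ± 0.19. MX1 was above background in 2 of 4 pools at 14 months and 4 of 4 at 11 months, and MX2 in 3 of 4 at each age. OAS2, which makes the 2-5A messenger that activates RNase L, had a mean of 0.00 ± 0.18 but was above background in 0 of 4 pools at 14 months and 1 of 4 at 11 months. IFI44 had ratios of 0.07, 0.08, 0.06 and 0.08, all positive, with an unadjusted p of 0.399 in limma. It was above background in 0 of 4 pools at 14 months and in 1 of 4 at 11 months, and its 95% confidence interval of -0.12 to 0.26 includes 0.

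ADAR, which edits adenosine in double-stranded RNA, had a mean of 0.08 ± 0.12 from its brighter probe and -0.08 ± 0.35 from the other. SAMHD1, which depletes deoxynucleotides, had a mean of -0.05 ± 0.15 from its brighter probe and 0.09 ± 0.26 from the other. EIF2AK2 (PKR), a kinase that halts translation on sensing double-stranded RNA, had ratios of 0.70, 0.31, 0.05 and -0.27 and a mean of 0.20 ± 0.41. TRIM21, an intracellular antibody receptor, had ratios of -0.46, -0.67, 0.01 and 0.15 and a mean of -0.24 ± 0.39. TRIM25, the ubiquitin ligase that acts on the sensor RIG-I, had a mean of -0.16 ± 0.13 and an unadjusted p of 0.126 in limma. EIF2AK2 and TRIM21 thus ranked among the members with the largest spread over heifers, and neither had a common direction. EIF2AK2 was above background in 2 of 4 pools at 14 months and in 3 of 4 at 11 months. TRIM25 was so in 4 of 4 and 2 of 4, and TRIM21 in 4 of 4 at each age. RSAD2 (viperin), IFI6 and ISG20 were above background in 0 of 8 pools each.

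ISG15, a ubiquitin-like protein joined to other proteins during the interferon response, had ratios of -0.02, 0.09, 0.04 and -0.07. Its signals lay between 6.68 and 6.75 at 14 months, against 6.68 to 6.77 at 11 months, and 3 of 4 pools at each age were above background. The mean was 0.01 ± 0.07, with a 95% confidence interval of -0.19 to 0.21. UBA7, its activating enzyme, had ratios of 0.39, 0.02, -0.03 and -0.06 and a mean of 0.08 ± 0.21. UBE2L6, its conjugating enzyme, had ratios of -0.39, -0.02, 0.16 and 0.05 and a mean of -0.05 ± 0.24; it was above background in 0 of 4 pools at 14 months and 3 of 4 at 11 months. USP18, the protease that removes ISG15, had ratios of -0.07, -0.09, -0.07 and 0.04 and a mean of -0.05 ± 0.06. Its brighter probe was above background in 3 of 4 pools at 14 months and 2 of 4 at 11 months, and its other probe gave 0.08 ± 0.17. No gene of the ISG15 system was at an unadjusted p under 0.05.

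Of the feedback inhibitors, SOCS1, which blocks JAK kinases, had ratios of -0.01, 0.32, 0.39 and 0.13. Its signals were 10.18, 10.32, 10.76 and 10.60 at 14 months, against 10.17, 10.63, 11.15 and 10.73 at 11 months. The mean was 0.20 ± 0.18, with an unadjusted p of 0.0821 in limma. Leaving out replicates 1 to 4 in turn gave a p of 0.0417, 0.222, 0.266 and 0.127 in limma. SOCS3 was above background in 1 of 4 pools at each age.

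Set side by side, the induced effectors and the receptors and factors differed in their medians. The 19 tested effectors had a median log2 ratio of -0.04, 0.02, -0.03 and -0.04 on the 4 arrays, with a mean of -0.02 ± 0.03. The 10 tested receptors and factors had a median of -0.27, -0.32, -0.09 and -0.06, with a mean of -0.19 ± 0.13. All tested genes had medians of 0.02, 0.00, 0.00 and 0.01. The effectors' median lay above that of the receptors and factors by 0.23, 0.34, 0.06 and 0.02, a mean of 0.16 ± 0.15. The difference had 1 sign on all 4 arrays and rested mostly on replicates 1 and 2, where it averaged 0.29, against 0.04 in replicates 3 and 4. The trophectoderm keratins swung between the same pairs of heifers. The ratios were 1.37, 1.15, -1.57 and -1.61 for KRT8 and 0.98, 0.55, -0.63 and -0.71 for KRT18. The other trophectoderm markers moved less between the pairs, and GATA3 moved the opposite way. Over replicates 1 and 2, against replicates 3 and 4, means were 0.30 and 0.13 for CDX2 and -0.30 and 0.05 for GATA3. They were 0.09 and -0.20 for TFAP2C, 0.31 and -0.02 for ELF5, and 0.29 and -0.18 for TEAD4. The part of these markers in the difference of medians was not tested. No p is given for that difference, since the members were chosen with results of these arrays known.

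**Figure D3:**
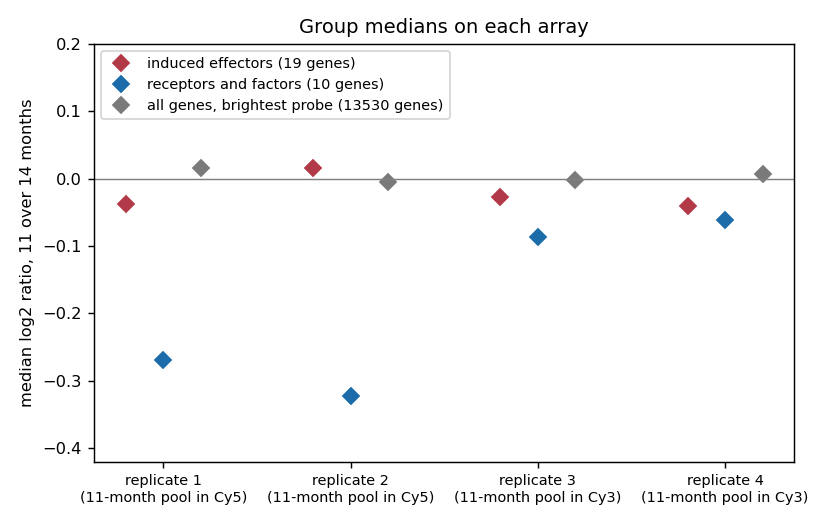
Median log2 ratio of the 11-month over the 14-month pool (y axis) on each of the 4 arrays (x axis) for 19 induced effectors, 10 receptors and factors, and all 13530 tested genes. The effectors stay between -0.04 and 0.02, while the receptors and factors lie at -0.27, -0.32, -0.09 and -0.06 on the arrays of replicates 1 to 4.

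By gene, 4 of the 10 receptors and factors were at an unadjusted p under 0.05 with a higher signal at 14 months, and 0 with a lower one, against 5.15% and 4.96% of all tested genes. The 4 include IFNAR1, whose other probes gave 0.04 and -0.02. Of the 19 effectors, 2 had a higher signal at 14 months at that threshold and 1 a lower one, against the same shares of all genes. The means of the receptors and factors ran from -0.36 to 0.29 and those of the effectors from -0.48 to 0.33, so that the ranges overlapped almost entirely. IFITM3 and IFIT5, both effectors, had means larger in size than any receptor or factor.

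The roles also differed in how many members were above background. Of 22 effectors on the array, 7 (31.8%) were above it in all 8 pools and 3 in none. Of 12 receptors and factors, 8 (66.7%) were above it in all 8 pools and 1 in none. Over all annotated genes, 59.9% were above background in all 8 pools. Of the 39 members on the array, 26, 28, 30 and 27 were above background at 14 months, against 26, 31, 26 and 26 at 11 months. No age had the higher count in every heifer. The ratios of MX1, OAS2, IFI44, IFIT2, ISG15 and USP18, among others, come from probes close to the background limit. Such ratios compare partly background, so that their small means and SDs do not show that these genes were unchanged.

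Several members differed between the dye orientations. Each orientation was also a different pair of heifers, so that dye and heifer cannot be told apart, and no member passed an adjusted p of 0.05 in limma for the dye term. Over the 33 members, the ratios of replicates 1 and 2 correlated at r = 0.70, and those of replicates 3 and 4 at r = 0.48. Arrays of opposite orientation correlated at r between -0.03 and 0.23. These are correlations across genes of pools that share a dye layout, and genes are not independent replicates. Over all 36447 probes the same values were 0.58, 0.28 and between -0.18 and 0.14.

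The member with the largest difference between the orientations was IRF7, with a mean of -0.86 over replicates 1 and 2 and 0.18 over replicates 3 and 4. TRIM21 gave -0.56 and 0.08, JAK1 -0.37 and 0.11, and TMEM173 0.36 and -0.29. For the members negative in all 4 heifers the sign in each orientation is fixed by that choice, and the sizes were as follows. IFITM3 gave -0.58 and -0.38, IRF9 -0.35 and -0.30, IRF1 -0.28 and -0.26, IFNGR1 -0.38 and -0.22, and IFNAR1 -0.29 and -0.44. With a dye term for each probe in the fit, the lowest adjusted p of a member in limma was 0.0845, that of IFITM3, and IRF7 had the lowest adjusted p for the dye itself, 0.0634.

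**Figure D4:**
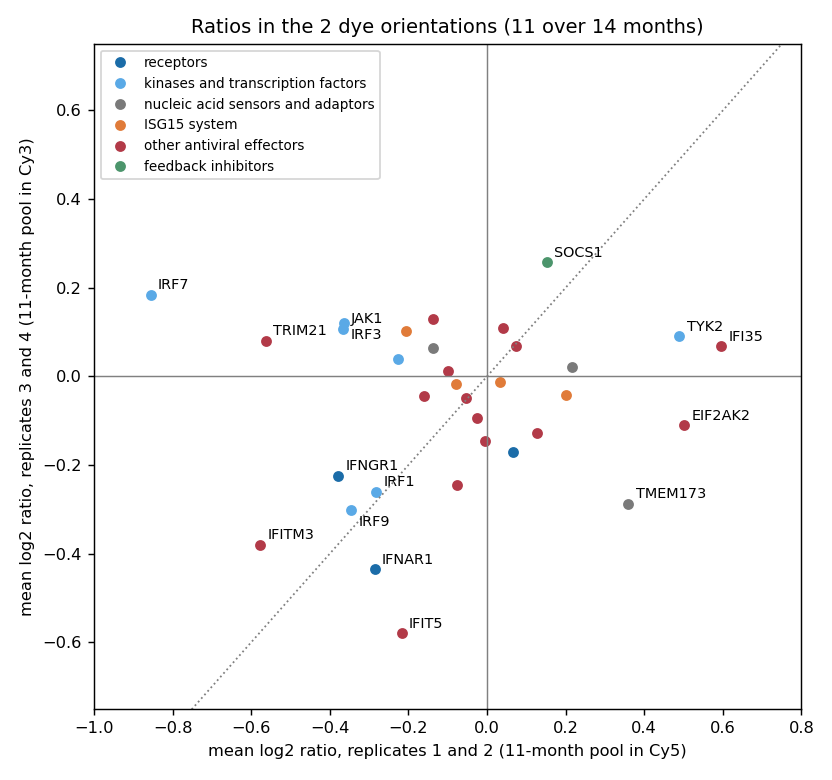
Mean log2 ratio of the 11-month over the 14-month pool in replicates 1 and 2 (x axis, 11-month pool in Cy5) against that in replicates 3 and 4 (y axis, 11-month pool in Cy3) for the 33 tested members, coloured by role; the dotted line marks equal values. IRF1, IRF9, IFNGR1, IFITM3, IFNAR1 and IFIT5 lie in the lower left, negative on both axes, while IRF7, at -0.86 and 0.18, is far from the line.

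The interferons themselves were mostly below the range of the array. Of 7 type I and gamma interferon genes with a probe, 3 were tested. IFNT, interferon tau, had ratios of 0.31, 0.10, 1.48 and -0.46, a mean of 0.36 ± 0.82 and an unadjusted p of 0.252 in limma. The mean rested on replicate 3 and was -0.02 without it. It was above background in all 8 pools, and its spread over heifers was larger than that of any member. IFNAC, an interferon alpha, and IFNW1, interferon omega, had means of -0.07 ± 0.34 and 0.02 ± 0.18. IFNB1, IFNB3, IFNG and IFNK were above background in 0 of 8 pools each.

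Other genes of the pathway outside the members were counted from lists of further signalling, sensing and induced genes. Of 74 tested genes in these lists and the ligands together, 0 passed an adjusted p of 0.05 in limma, 5 had a higher signal at 14 months at an unadjusted p under 0.05, and 2 a lower one. The shares of all tested genes were 5.15% and 4.96%, so that these counts are near the background. Of 24 other signalling genes, 1 had a higher signal at 14 months at that threshold, the transcription factor IRF8, with ratios of -0.57, -0.09, -0.49 and -0.24 and a mean of -0.35 ± 0.22. Its unadjusted p of 0.0165 in limma became 0.0642 without replicate 1 and 0.0622 without replicate 3. The next smallest p-values in that list belonged to the feedback inhibitor CISH, with a mean of -0.26 ± 0.24, and to the phosphatase PTPN2, with -0.18 ± 0.05. The median of the list was -0.01.

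Of 13 other sensing genes, 11 had a positive mean, against 6849 of all 13530 tested genes. At an unadjusted p under 0.05 in limma, 1 of the 13 had a lower signal at 14 months, against 4.96% of all tested genes. This was NLRX1, a mitochondrial protein that restrains MAVS signalling, with ratios of 0.57, 0.44, 0.35 and 0.18, a mean of 0.39 ± 0.16, an unadjusted p of 0.00588 in limma and an adjusted p of 0.397. The receptors TLR3 and TLR4 had means of 0.19 ± 0.24 and 0.15 ± 0.16. Each was above background in 1 of 4 pools at 14 months, against 2 of 4 for TLR3 and 4 of 4 for TLR4 at 11 months. Of 34 other induced genes, 14 had a negative mean and 20 a positive one. At an unadjusted p under 0.05 in limma, 4 of them had a higher signal at 14 months and 1 a lower one. The shares of all tested genes were 5.15% and 4.96%. The lower one was HERC5, the ligase that attaches ISG15 in human cells, with ratios of 0.26, 0.24, 0.39 and 1.03 and a mean of 0.48 ± 0.37, which was 0.30 without replicate 4. Among the higher ones, PARP10 and SHISA5 had means of -0.36 ± 0.25 and -0.26 ± 0.16. PARP10 was above background in 3 of 4 pools at 14 months and in 1 of 4 at 11 months, and SHISA5 in 4 of 4 at each age. The unadjusted p of PARP10 in limma was 0.0653 without replicate 2 and 0.0715 without replicate 3. That of SHISA5 was 0.0778 without replicate 1, 0.128 without replicate 2 and 0.053 without replicate 4. The remaining ones, APOL3 and CCL5, were named after their values were seen: APOL3 had ratios of -1.47, -1.93, -0.17 and 0.07, and CCL5 had -1.07, -1.41, -0.01 and -0.10. In these last genes the difference lay in the heifers whose 11-month pool was in Cy5. The medians of the sensing and induced lists were 0.06 and 0.01, near the 0.00 of all genes.

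The pools matched their label as blastocysts: 4 of 4 inner cell mass markers and 6 of 7 trophectoderm markers were above background in all 8 pools. The inner cell mass factor NANOG had a mean of 1.10 ± 0.42, positive in 4 of 4 heifers, with an unadjusted p of 0.000301 in limma and an adjusted p of 0.388. The other inner cell mass markers had no common direction over the heifers. Their means were -0.33 ± 0.72 for SOX2, -0.15 ± 0.37 for SALL4 and 0.04 ± 0.20 for POU5F1. Of the markers of other cells, 1 of 6 for leukocytes, 3 of 8 for cumulus and granulosa cells and 2 of 4 for fibroblasts were above background in all 8 pools, and 0 of their 14 tested genes were at an unadjusted p under 0.05. Those above it in all 8 were CD14 for leukocytes, CYP19A1, FSHR and INHBA for cumulus and granulosa cells, and COL1A1 and COL1A2 for fibroblasts. The leukocyte integrin ITGAM and the granulosa genes AMH and FOXL2 were above background in no pool. The part of other cells in the members' values was not tested. Between 63.6% and 71.6% of probes were above background in a pool.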

How the data were processed

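Each array held the 14-month and the 11-month blastocyst pool of 1 heifer. Total RNA went through a pair of linear amplification rounds and was labelled with Cy3 or Cy5, per the labels' protocols, which can change the relation between transcripts. Per the file headers, the scanner output holds linear intensity values, as mean and median, for every spot and the background around it. The authors also deposited log2 ratios of the 2 channels, and the sources used here do not state how these were normalized or centred. Compared with the scanner ratios, the deposited series matrix ran 11 over 14 months on all arrays (r = 0.927 to 0.994 across probes, slopes of 1.06 to 1.34, column medians of 0.00853, 0.00336, 0.00104 and 0.0234), from which base 2 was taken.

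The main values were made from the scanner files in R 4.3.3 with limma 3.58.1, and the deposited ratios served as an alternative. Median signals were corrected by normexp with an offset of 50 and normalized by loess within each array, with 1426 control and blank spots at weight 0. Probes were kept whose mean log2 intensity exceeded that of 153 negative control spots by more than 2 SD, and 36447 of 43794 passed. The same limit per channel defined "above background". Signals of single pools followed loess and Aquantile normalization. Ratios, with their direction set by the labelled dyes, entered lmFit and eBayes as 1 mean over the arrays, which pairs the pools of a heifer, on 3 residual and 3.71 prior degrees of freedom. The small number of arrays limits the precision.

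Genes were named from the platform annotation, and gene neighbours came from the RefSeq table of ARS-UCD2.0; no coordinates or sequences are printed. The members, role groups and further pathway lists were chosen with earlier results of these data known. Ratios of every heifer are given for the receptors, STAT2, IRF9, the 3 members of each role group with the smallest p, members at an unadjusted p under 0.05 or with a mean log2 ratio of 1.5-fold or more, and the 5 with the largest SD. Of the other pathway genes, the 3 of each list with the smallest p and every measured ligand are named. Alternatives changed the background correction, normalization, filter, foreground statistic, dye term, pairing, probe rule and replicates. The fit was tested on simulated data with independent noise on each array, unlike the real arrays, whose ratios correlated within a dye orientation. Figures were made in Python 3.11.15 using matplotlib 3.10.9.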

Additional observations from a re-analysis of the deposited data

Results flagged for a closer look

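In 3 of 56 sets of 4 heifers tested, 1 heifer's log2 ratio of 11 over 14 months lay far from the other 3, and chance gives such a gap in about 1 set of 20. IFIT3 had 0.1725 in replicate 2, against -0.18, -0.16 and -0.13 in replicates 1, 3 and 4. UBA7 had 0.3854 in replicate 1, against 0.02, -0.03 and -0.06 in replicates 2, 3 and 4. USP18 had 0.039 in replicate 4, against -0.07, -0.09 and -0.07 in replicates 1, 2 and 3. None of these 3 genes was at an unadjusted p under 0.05 in limma.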

How the results depend on the processing

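No member passed an adjusted p of 0.05 in limma under any of the 14 alternatives with a test, and the lowest adjusted p of any probe was 0.0522, with a gene-specific dye term. Of the 33 tested members, 18 kept 1 sign under each of these alternatives that could be run for them. Among the 18 were the 7 at an unadjusted p under 0.05, and for 8 of the 18 that was 13 alternatives. The other 15, with means no further from 0 than 0.12, had the opposite sign under 1 of these alternatives or more. Leaving out a heifer turned the sign of IFNGR2, IRF3, MAVS, TMEM173, ISG15, UBA7, UBE2L6, MX1, OAS2 and IFITM2 among them, and of the ligands IFNT, IFNAC and IFNW1. The dye orientations taken alone had no test and are not counted among these alternatives. In replicates 3 and 4 alone, IRF7, JAK1, STAT2, TRIM21 and EIF2AK2, all among the 18, had the opposite sign. Their means there were 0.18, 0.11, 0.04, 0.08 and -0.11. The 3448 probes at an unadjusted p under 0.05 became 2050 with median centring in place of loess, 5936 with the dye term, 2056 with no replicate block, in which the pools of a heifer are not paired, and 1557 to 3956 when 1 replicate was left out. The 6 members with a higher signal at 14 months became 2 with no replicate block and 3 to 6 when 1 replicate was left out. The 1 member with a lower signal at 14 months became 0 when all 8 channels had to be above background, 2 with the dye term, and 0 to 2 when 1 replicate was left out. Beyond the smaller number of samples or probes in those that drop them, the cause was not tested. The difference of the effectors' median minus that of the receptors and factors, 0.16, stayed positive in every setting: it was 0.18 in the authors' deposited ratios, 0.13 with the mean over a gene's probes, 0.10 to 0.21 when 1 replicate was left out, and 0.29 and 0.04 within the dye orientations. Differences of dim probes, most of them effectors, are limited by the signal over background.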
